A study of Rattus norvegicus with 10 samples.

Results

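The genes described here encode 10 proteins that the liver secretes into blood plasma: albumin (Alb), apolipoproteins A-I and A-II (Apoa1, Apoa2), transthyretin (Ttr), the fetuins (Fetub and Ahsg), the alpha, beta and gamma chains of fibrinogen (Fga, Fgb, Fgg) and alpha-1 antitrypsin (Serpina1). They were chosen by name, with earlier results of these data known. Each of the 10 genes was represented by exactly 1 of the array's 68842 transcript clusters, a cluster being the group of probes that covers a transcribed region, and a cluster was used where the gene was its only annotated symbol. RNA was taken from plasma exosomes, small vesicles released by cells, of male Wistar rats. The RIC group held 5 rats given remote ischemic conditioning, in which the blood supply of a body part is interrupted and restored repeatedly (4 cycles of ischemia for 5 min followed by reperfusion for 5 min), and the control group held 5 healthy rats. The labels do not name the conditioned body part, the animals' age or the interval before blood was drawn, and the treatment text, which is the same for every animal, was read as applying to the RIC rats. From each animal 10 mL of venous blood was collected with EDTA.

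Hepatocytes make most of the protein mass of plasma. Albumin carries fatty acids, hormones and drugs and sets the colloid osmotic pressure, the A apolipoproteins form high-density lipoprotein, and fibrinogen is cut by thrombin to form the clot. The messenger RNAs of these proteins are among the most abundant of the liver, and in blood they are used as a sign of RNA that came from liver. Platelets carry much fibrinogen and albumin protein in their granules, taken up from plasma, so the proteins and their RNAs need not share a source.

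Values are log2 signals. Array signal without matching RNA was gauged on 1446 clusters of olfactory and vomeronasal receptor genes, sensory receptors that serve here as background. The median of their cluster means was 4.01, and the 95th percentile, called the background limit here, was 4.38. Of all 68842 clusters 22545 had a mean above that limit. The background itself differed between groups: the receptor median of an array was 4.04 ± 0.03 in RIC and 3.96 ± 0.04 in control (SD, n = 5 each), a difference of 0.08 (two-sided exact permutation p = 0.00794, the smallest that 252 assignments allow). Control samples 2 and 1 stood apart on the first and the second principal component, at -65.3 and 52.2, and RIC sample 4 lay lowest on the second, at -40.1. On the first component the RIC samples lay between 9 and 40.6 and the controls between -65.3 and -2.7. All 6 vesicle genes looked up (Cd9, Cd63, Cd81, Pdcd6ip, Tsg101 and Sdcbp) lay above the background limit, from 5.81 to 19.93. Limma found 0 of 68842 clusters at a Benjamini-Hochberg adjusted p under 0.05 (0.00% called), against 7665 (11.1%) at an unadjusted p under 0.05. A trended, robust variance model and array weights also gave 0, with 7222 and 7297 at an unadjusted p under 0.05.

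Albumin was the 1 member clearly above background, and the other 9 lay within or at the edge of the receptor distribution. Alb averaged 5.23 over the 10 arrays, 1.22 above the receptor median on the log2 scale, and 2 of the 1446 receptor clusters had a higher mean. It exceeded the receptor 95th percentile of its own array on all 5 RIC arrays and on 4 of 5 control arrays. Ttr had a mean of 4.40, just over the background limit, but exceeded its own array's percentile on 1 of 10 arrays. Just below the limit came Fgb at 4.35, then Ahsg at 4.31 and Fgg at 4.24. The means of Serpina1 (4.05), Apoa1 (4.03), Fetub (4.02), Apoa2 (3.97) and Fga (3.96) were between 0.04 below and 0.04 above the receptor median, and none of these 5 genes exceeded its own array's percentile on any array. For members at background the RNA was not detectable with these probes, which does not show that it was absent. Binding strength varies from probe to probe, so these positions describe distance from background and do not rank the RNAs by amount. The plot of the members against the receptor clusters shows these positions.

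**Figure D1:**
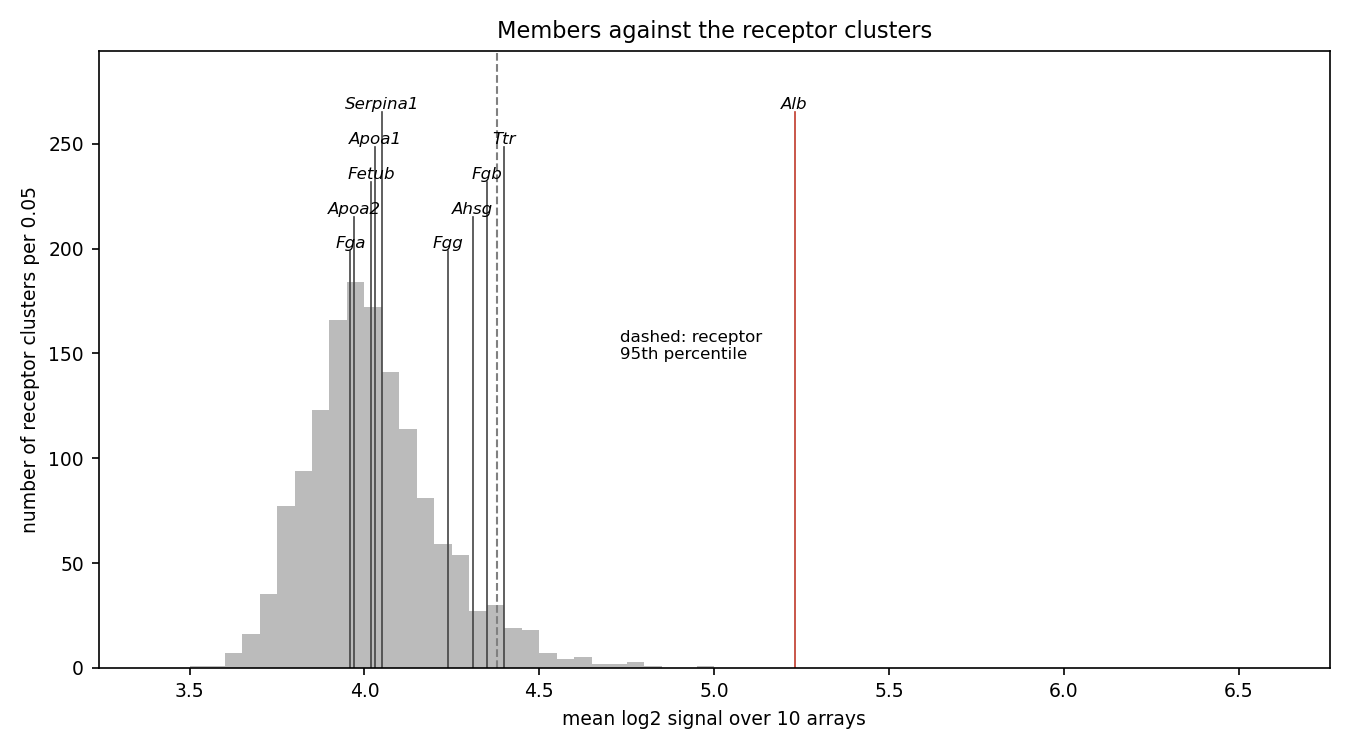
Histogram of the mean log2 signal over 10 arrays of the receptor clusters (grey, number of clusters per bin of 0.05), with a vertical line for each of the 10 members and a dashed line at the receptor 95th percentile of 4.38. Alb at 5.23 stands apart, while the other 9 members lie between 3.96 and 4.40; 2 receptor clusters lie beyond the right end of the axis.

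The promoters of Alb and of the fibrinogen genes are shown because Alb had measurable signal, and because the 3 fibrinogen chains, neighbours on chromosome 2 whose proteins form 1 molecule, had differences of both signs in these data. Sequences are the 250 bases before the annotated start, from RefSeq on GRCr8, 5′ to 3′ on the gene's strand. That of Alb is chr14:17906980-17907229 (minus strand), that of Fga chr2:170671919-170672168 (plus, the first of its annotated starts), that of Fgb chr2:170700876-170701125 (minus) and that of Fgg chr2:170652833-170653082 (plus). Capitals mark matches, on either strand, to GTTAAT, the core of the site bound by hepatocyte nuclear factor 1, a regulator of liver genes, and to CCAAT, the CCAAT box.
Alb: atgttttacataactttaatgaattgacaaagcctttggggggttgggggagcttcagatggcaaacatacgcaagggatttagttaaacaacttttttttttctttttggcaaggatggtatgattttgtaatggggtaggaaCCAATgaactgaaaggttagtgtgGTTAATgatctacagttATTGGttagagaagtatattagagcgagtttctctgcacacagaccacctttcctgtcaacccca
Fga: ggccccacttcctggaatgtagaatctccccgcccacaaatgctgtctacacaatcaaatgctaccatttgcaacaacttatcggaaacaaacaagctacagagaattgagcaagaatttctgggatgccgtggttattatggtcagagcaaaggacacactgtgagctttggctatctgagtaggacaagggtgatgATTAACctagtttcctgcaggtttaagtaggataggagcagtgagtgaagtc
Fgb: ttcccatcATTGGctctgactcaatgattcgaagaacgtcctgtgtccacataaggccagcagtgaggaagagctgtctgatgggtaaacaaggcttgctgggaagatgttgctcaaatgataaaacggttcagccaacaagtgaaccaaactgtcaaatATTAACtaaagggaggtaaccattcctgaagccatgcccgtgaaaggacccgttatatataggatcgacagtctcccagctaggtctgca
Fgg: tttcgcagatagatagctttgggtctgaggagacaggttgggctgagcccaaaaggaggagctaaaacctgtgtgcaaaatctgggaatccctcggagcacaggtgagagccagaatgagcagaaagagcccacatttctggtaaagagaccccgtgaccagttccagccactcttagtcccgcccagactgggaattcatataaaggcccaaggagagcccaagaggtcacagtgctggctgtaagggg
GTTAAT occurred in the promoters of Alb, Fga and Fgb, that is 3 of the 7 members with a promoter in the table, and in 6.46% of 27457 promoters of all genes. CCAAT occurred in those of Alb and Fgb, 2 of 7, and in 34.3% of all. The motifs do not overlap each other in these windows, and a match describes letters only.

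The difference between RIC and control in Alb was the largest in size among the 10 members and did not pass the test. Alb measured 5.51, 5.36, 5.01, 6.36 and 5.36 in RIC samples 1 to 5, against 5.24, 5.31, 5.03, 4.50 and 4.60 in control samples 1 to 5. The groups overlapped: 4 RIC samples lay above every control, RIC sample 4 was the highest of all, RIC sample 3 lay below 3 controls, and control samples 4 and 5 were low. The means were 5.52 ± 0.50 in RIC and 4.94 ± 0.37 in control (SD, n = 5 each), a log2 difference of 0.58 (SE 0.26, 95% interval -0.01 to 1.18), or 1.5-fold, with a limma adjusted p of 0.453 over all clusters and a two-sided exact permutation p of 0.0556. More vesicles of a source and more RNA per vesicle cannot be told apart in such samples.

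Measured from each array's own receptor median, Alb stood at 1.48 ± 0.52 in RIC and 0.98 ± 0.40 in control (SD, n = 5 each), a difference of 0.50 (exact permutation p = 0.151). Ranked on its own array, Alb lay between the 82.2 and 90.1 percentile of all clusters in RIC and between the 70.4 and 84.3 percentile in control. Most clusters of that level went the other way: of 3038 clusters with a mean within 0.25 of that of Alb, 34.5% were higher in RIC, with a median difference of -0.06. Leaving out RIC sample 4 reduced the Alb difference to 0.37, and leaving out control samples 1 and 2 raised it to 0.81 (limma adjusted p = 0.501 and 0.714). The Alb values spanned 1.86 over the 10 arrays, and 1 of 1446 receptor clusters had a wider span. The median span was 0.57 for the receptor clusters and 0.70 for the clusters within 0.25 of the Alb mean.

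By root mean square difference over the 10 samples after subtracting each gene's mean, the profiles nearest to Alb among 9772 named clusters above background were those of Car2 (0.25), which encodes a carbonic anhydrase found in red cells among others, Mirlet7f-1os (0.27) and Chac2 (0.27), against a spread of 0.49 for Alb itself. Car2 measured 8.58, 8.25, 8.25, 9.59 and 8.26 in RIC samples 1 to 5, against 8.20, 8.09, 8.20, 8.21 and 7.74 in control samples 1 to 5. RIC sample 4 was highest for Car2, as for Alb, and also for Mirlet7f-1os (6.16) and Chac2 (5.65). Car2, but not Mirlet7f-1os or Chac2, is also 1 of the 16 erythroid markers. Of these markers 11 (68.8%) had a higher mean in RIC, 2 a lower one and 3 were constant, where 60.0% of all clusters had a higher mean. An unadjusted limma p under 0.05 was found for 3 of the 16, all higher, where 11.1% of all clusters had one. The median of the erythroid markers per sample lay between 7.33 and 8.73 in RIC and between 7.22 and 7.63 in control. Platelet markers had a lower mean in RIC in 12 of 18 genes (median difference -0.05), leukocyte markers in 6 of 15 (0.02) and endothelial markers in 12 of 13 (-0.43). Of the platelet markers 2 had a higher mean, and 4 were constant at 19.93, the highest value of the arrays. Itgb3 (18.31), Treml1 (17.86), P2ry12 (19.75) and Thbs1 (19.93) had 1 value in all 5 controls, and no RIC sample exceeded it. Values held at 1 level limit what the platelet count can show. Over all 68842 clusters 25727 had a lower mean. At an unadjusted limma p under 0.05, 1 platelet gene was lower, 1 leukocyte gene higher and 3 endothelial genes lower. Of all clusters 3.17% were lower at that threshold. The part of these cell types in the Alb difference was not tested. The plot of Alb, Car2 and Fgg by sample sets these profiles beside that of Fgg.

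**Figure D2:**
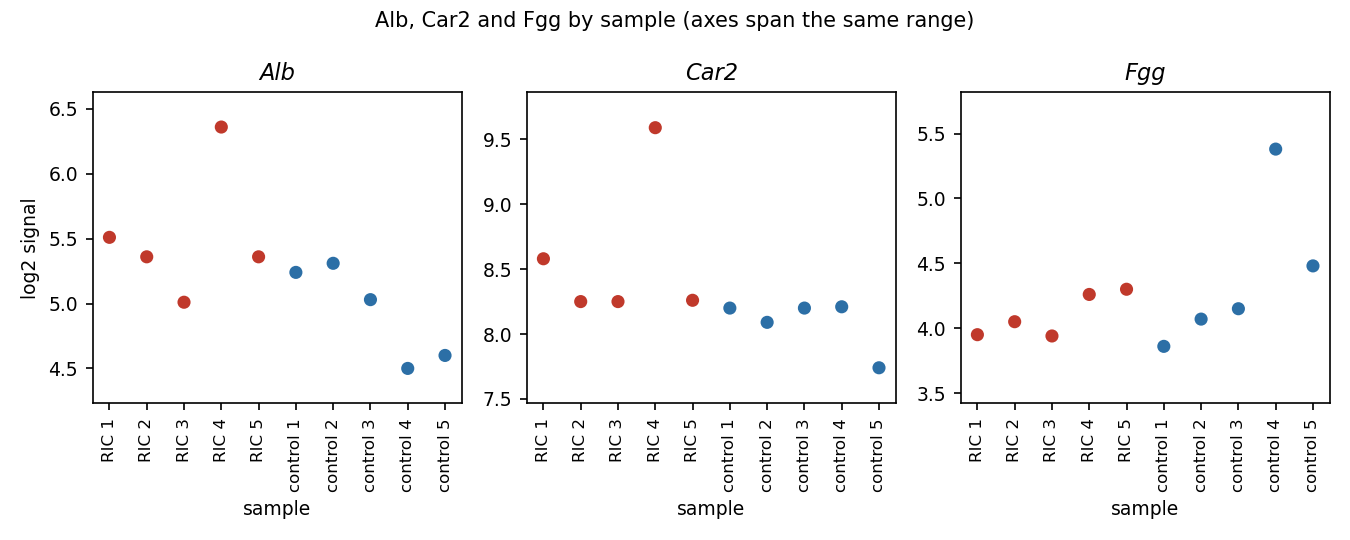
Log2 signal (vertical axes, equal span) of Alb, Car2 and Fgg in each of the 5 RIC (red) and 5 control (blue) samples. RIC sample 4 is highest for Alb (6.36) and Car2 (9.59), and control sample 4 is lowest for Alb (4.50) and highest for Fgg (5.38).

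The 3 fibrinogen genes had differences of both signs, and none passed the test. Fgg, the gamma chain that holds the binding site for the platelet integrin, measured 3.95, 4.05, 3.94, 4.26 and 4.30 in RIC samples 1 to 5, against 3.86, 4.07, 4.15, 5.38 and 4.48 in control samples 1 to 5. Control sample 4 alone stood far above background, and the remaining samples of both groups overlapped. Group means of Fgg were 4.10 ± 0.17 in RIC and 4.39 ± 0.60 in control (SD, n = 5 each), a difference of -0.29 (SE 0.26, limma adjusted p = 0.684, exact permutation p = 0.397) that became -0.04 without control sample 4 and -0.57 without control samples 1 and 2. Its span of 1.52 over the arrays was exceeded by 2 of 1446 receptor clusters. In that same control sample Fga and Fgb, whose chains assemble with the gamma chain, measured 4.07 and 4.27.

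Fgb, the beta chain, measured 4.40, 4.24, 4.60, 4.44 and 4.37 in RIC samples 1 to 5, against 4.32, 4.28, 4.28, 4.27 and 4.29 in control samples 1 to 5. The controls lay within 0.05 of each other, and 4 of 5 RIC samples lay above them. The difference was 0.12 (SE 0.06, limma adjusted p = 0.472, exact permutation p = 0.0556), or 0.04 after each array was centred on its receptor median. Leaving out 1 sample moved it between 0.07 (without RIC sample 3) and 0.16 (without RIC sample 2, limma adjusted p = 0.399). Fga, the alpha chain, ranged from 3.95 to 4.06 in RIC and from 3.81 to 4.07 in control. Its difference was 0.07 (SE 0.05, limma adjusted p = 0.637), or -0.02 after centring on the receptor median. It was 0.04 without control sample 2 or without control sample 5, and 0.10 without control sample 4.

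The fetuins, cystatin-related proteins of which Ahsg (fetuin-A) keeps calcium phosphate from precipitating and Fetub (fetuin-B) inhibits, in the mouse, a protease that hardens the egg coat, are neighbours in the genome. Fetub measured 4.14, 4.04, 4.04, 4.01 and 4.06 in RIC samples 1 to 5, against 3.94, 3.96, 3.92, 4.03 and 4.02 in control samples 1 to 5. These groups overlapped by RIC sample 4 alone, which lay below 2 controls. Fetub was the 1 member of 10 with an unadjusted limma p under 0.05, where 11.1% of all clusters had one. That count of members was 0 to 3 when 1 sample was left out. It was 0 without control sample 3 or RIC sample 1, 2 without RIC sample 4 and 3 without RIC sample 3. It was 3 with array weights and 0 after centring arrays on their median or on the receptors. The member counted also changed where the count stayed at 1. It was Alb after repeated quantile normalization, after removal of the level-dependent trend and with the trended, robust variance model. Alb was also the member counted without control sample 1, control sample 2 or both. It was Ttr with the replicate block, Fgb without RIC sample 2 and Apoa2 without RIC sample 5. Fetub remained among those counted without control sample 4 or 5, without RIC sample 3 or 4 and with array weights. The Fetub difference of 0.08 (SE 0.03, limma adjusted p = 0.430, exact permutation p = 0.0397) equals the difference of the receptor medians and was 0.00 after centring on them. Ahsg ranged from 4.23 to 4.62 in RIC and from 4.06 to 4.34 in control. Its difference was 0.15 (SE 0.08, limma adjusted p = 0.511), or 0.06 after centring on the receptors. It was 0.10 without control sample 2, 0.09 without RIC sample 2 and 0.18 without RIC sample 3.

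Among the carriers, Ttr, which transports thyroxine and the retinol-binding protein, ranged from 4.32 to 4.52 in RIC and from 4.22 to 4.44 in control. Its difference was 0.09 (SE 0.05, limma adjusted p = 0.501), or 0.01 after centring on the receptors. Apoa2, an apolipoprotein of high-density lipoprotein, ranged from 3.93 to 4.12 in RIC and from 3.82 to 4.0 in control (difference 0.09, SE 0.05, limma adjusted p = 0.493). Apoa1, the main protein of high-density lipoprotein, ranged from 3.82 to 4.17 in RIC and from 3.93 to 4.20 in control. With Fgg it was the other member with a negative difference (-0.06, SE 0.08, limma adjusted p = 0.798), and centring on the receptors moved it to -0.14. Without a single sample the Apoa1 difference lay between -0.10 (without RIC sample 5) and -0.01 (without RIC sample 2). Serpina1, the inhibitor of neutrophil elastase, measured 4.06, 4.01, 3.97, 4.01 and 4.43 in RIC samples 1 to 5, against 4.07, 3.96, 3.97, 3.99 and 4.02 in control samples 1 to 5. RIC sample 5 alone lay above the controls, and without it the difference of 0.09 (SE 0.08, limma adjusted p = 0.679) became 0.01.

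**Figure D3:**
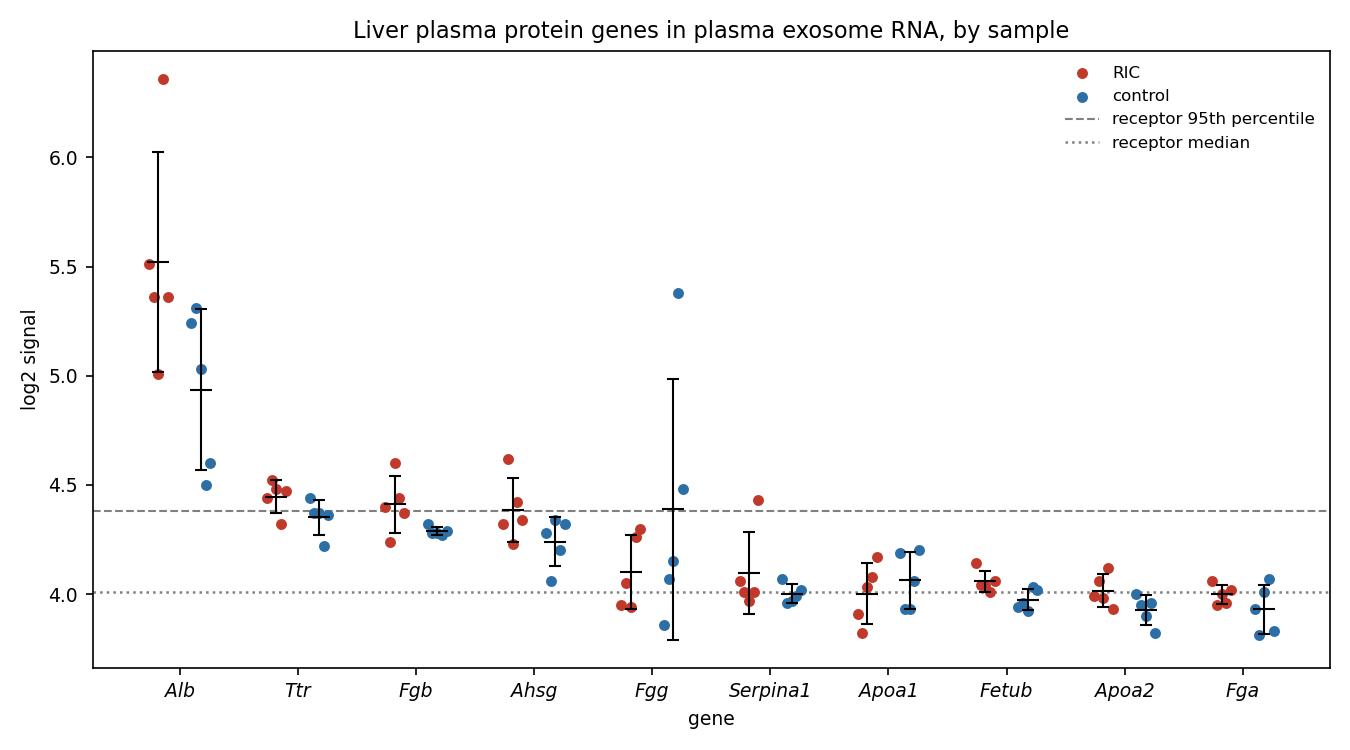
Log2 signal of each member in the 5 RIC samples (red, left of each pair) and the 5 control samples (blue), with the mean and SD in black, the receptor 95th percentile (dashed, 4.38) and the receptor median (dotted, 4.01). All 10 genes overlap between groups, and Alb lies above the dashed line in every sample. Fgg is highest in control sample 4 (5.38), followed by control sample 5 (4.48), both above that line.

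Of the 10 members 8 had a higher mean in RIC, their median difference was 0.09, and 0 of 10 passed limma. Over all clusters the share with a higher mean was 60.0% and the median difference 0.03. Over the receptor clusters that share was 76.4%, and their median difference equalled that of the members, 0.09. Of the 29056 clusters with means in the range of the 9 dimmer members, 70.9% were higher. After each array was centred on its receptor median, 6 of 10 members had a positive difference, with a median of 0.01. Groups did not overlap for 0 of 10 members and for 1.74% of all clusters. Among the 10 genes, 4 kept a difference of at least 0.06 in size after that centring: Alb at 0.50, Fgg at -0.37, Apoa1 at -0.14 and Ahsg at 0.06.

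**Figure D4:**
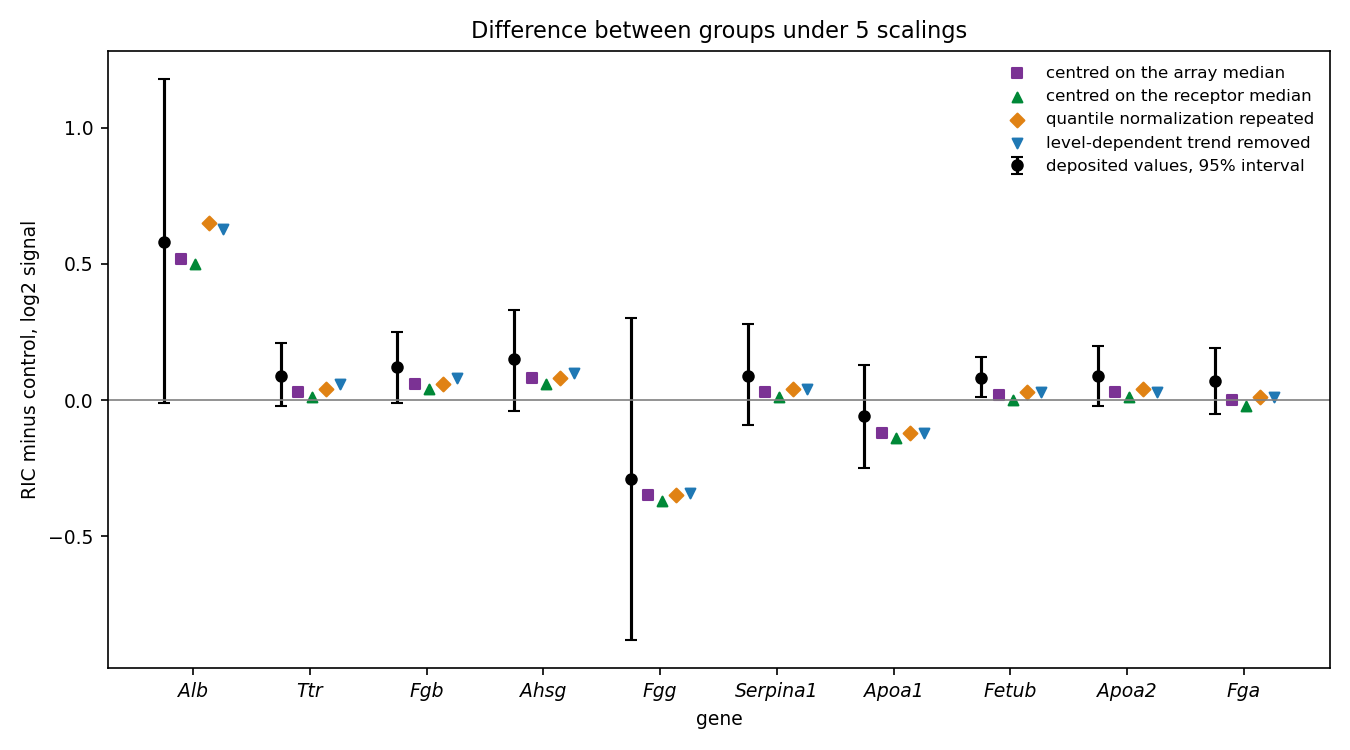
RIC minus control difference in log2 signal for each member, as deposited (black circles with the 95% interval from limma) and under 4 other scalings (coloured symbols). Of the 10 intervals, that of Fetub (0.01 to 0.16) leaves out 0, and after centring on the receptors its difference is 0.00, while Alb stays between 0.50 and 0.65 in all 5 scalings.

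Other secreted proteins of the liver were mostly at background as well. A further 87 genes came from 5 lists: other apolipoproteins, carriers and binding proteins, coagulation and fibrinolysis, complement, and acute-phase proteins with protease inhibitors. Of these, 15 lay above the background limit, where 22545 of all 68842 clusters did. Limma passed 0 of the 87. At an unadjusted limma p under 0.05, 15 were higher and 2 lower in RIC, where the shares over all clusters were 7.97% and 3.17%. Of the 1446 receptor clusters, 166 were higher and 7 lower at that threshold. The median difference of the 87 was 0.04. Of the 15 above background, 3 had a higher and 11 a lower mean in RIC. Over all 68842 clusters 41272 had a higher and 25727 a lower mean. Of the 3038 clusters within 0.25 of the Alb mean, 1049 were higher and 1972 lower. Among the 15, coagulation factor V (F5), which platelets also carry, sat at the array's ceiling of 19.93 in all samples. Several of them are made outside the liver too, such as Apoe, the apolipoprotein of macrophages and brain, at 5.21 ± 0.44 in RIC and 5.23 ± 0.15 in control (SD, n = 5 each). Lbp, which hands bacterial lipopolysaccharide to CD14, measured 5.29 ± 0.33 in RIC and 6.04 ± 0.26 in control (difference -0.74, SE 0.18, limma adjusted p = 0.347). The growth factor gene Igf1 measured 6.27 ± 0.37 in RIC and 7.31 ± 0.97 in control (difference -1.04, limma adjusted p = 0.435), and Cp, the copper carrier ceruloplasmin, 5.00 ± 0.24 in RIC and 5.35 ± 0.32 in control (difference -0.35, limma adjusted p = 0.477). Pros1, the anticoagulant protein S, measured 6.26 ± 0.64 in RIC and 6.58 ± 0.39 in control, and Selenop, the selenium carrier, 6.57 ± 0.31 in RIC and 6.66 ± 0.44 in control, neither of which passed limma. Of complement, C1r and C1s, proteases of the first component, measured 5.45 ± 0.28 and 4.82 ± 0.20 in RIC against 5.63 ± 0.43 and 5.01 ± 0.24 in control, and C4b 5.05 ± 0.27 in RIC and 5.26 ± 0.34 in control. The serpin gene Serpina3n measured 4.69 ± 0.14 in RIC and 4.78 ± 0.25 in control.

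Genes that mark the hepatocyte itself were at background. Of 26 measured, 2 exceeded the background limit, Arg1 of the urea cycle at 4.47 and Pck1 of gluconeogenesis at 4.39, and the median level was 4.01, equal to that of the receptors. The per-sample median of these markers lay between 4.0 and 4.08 in RIC and between 3.92 and 4.04 in control. Arg1 measured 4.57 ± 0.08 in RIC and 4.38 ± 0.09 in control (SD, n = 5 each; difference 0.18, limma adjusted p = 0.376). Of the 26 genes, 21 (80.8%) had a higher and 4 a lower mean in RIC, where 60.0% of all clusters and 76.4% of the receptor clusters had a higher one. Limma passed 0 of them, and 5 (19.2%) had an unadjusted p under 0.05, all higher. At that threshold 7.97% of all clusters and 166 of the 1446 receptor clusters were higher. The liver enzymes Cyp2e1 (4.18), Cyp3a2 (4.15) and Tat (4.15) and the receptor subunit Asgr2 (4.03) were all below the limit. Of 11 liver transcription factor genes 3 exceeded it, Cebpb at 5.12, Cebpa at 4.77 and Foxa2 at 4.44, and Cebpb and Cebpa are also expressed in myeloid cells.

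Other tissues that express some of the members were checked in the same way. Of 8 intestinal genes, a tissue that makes Apoa1, 0 exceeded the background limit (the highest were Vil1 at 4.18 and Cdh17 at 4.02), and of 8 genes of the choroid plexus, which makes Ttr, 1 did, the water channel Aqp1 at 6.62, which red cells also express, followed by Clic6 at 4.24. Of 7 kidney genes 0 did, the highest being Nphs1 at 4.06 and Umod at 4.01. In the lists of blood cells and of the vessel wall, 17 of 18 platelet, 16 of 16 erythroid, 11 of 15 leukocyte and 11 of 13 endothelial genes lay above the limit. Pf4 and Clec1b of platelets and the globins Hbb-bs and Hba-a1 were at 19.93 in all samples. The platelet genes Rab27b and Gp5 differed by -1.18 and -0.68, and the erythroid genes Car1 and Rhag by 1.54 and -1.31. The leukocyte genes Ccr2, S100a9 and Cd79a differed by -1.40, 0.51 and -0.25, and the endothelial genes Pecam1, Tek and Emcn by -1.10, -0.68 and -0.57. None of these passed limma. The plot of levels by list shows these 15 lists side by side.

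**Figure D5:**
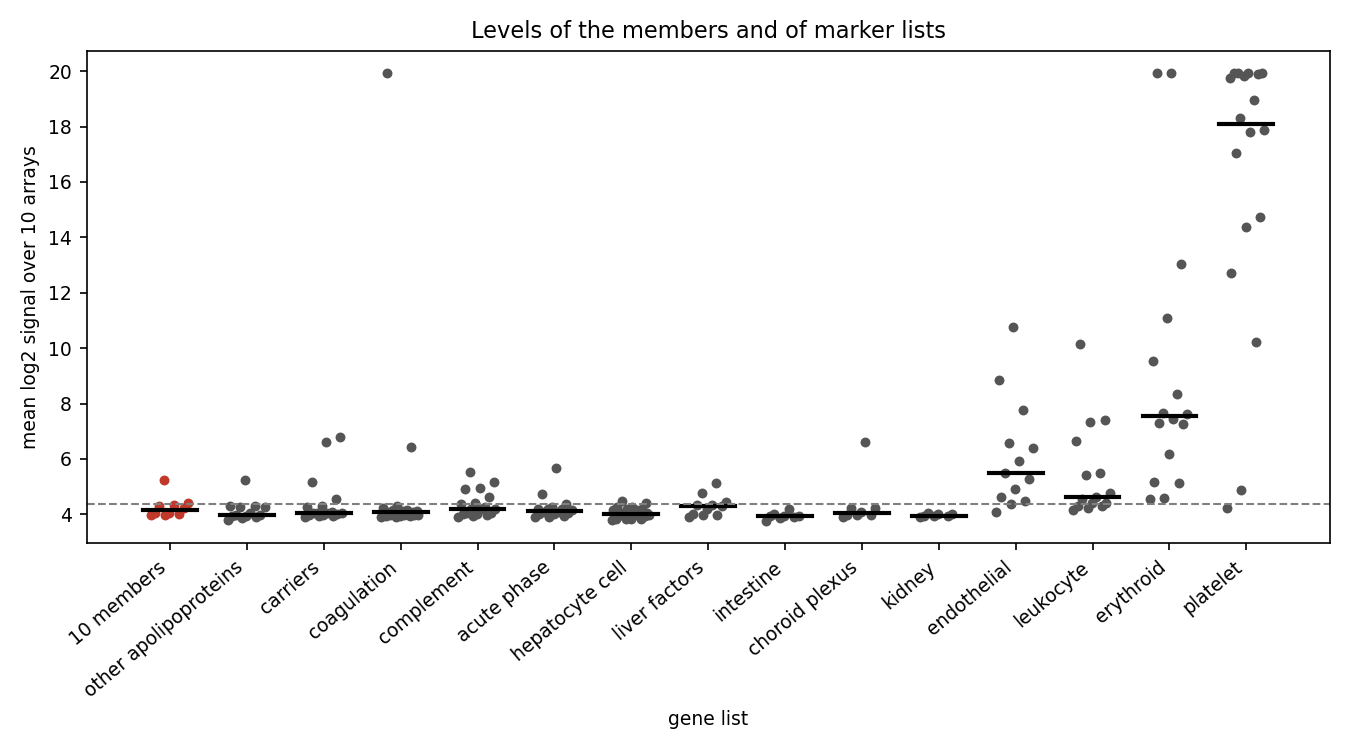
Mean log2 signal over 10 arrays of each gene in the members' list (red) and in 14 other lists (grey), with the list median as a black bar and the receptor 95th percentile as a dashed line. Liver, intestine, choroid plexus and kidney lists have medians from 3.93 to 4.30, and the platelet and erythroid lists have medians of 18.09 and 7.53.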

How the data were processed

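RNA of plasma exosomes from 10 rats was measured, 1 array per animal. The authors deposited log2 values per transcript cluster, for which the submitters' processing notes name Affymetrix Expression Console. Version, summarisation method and normalization: not given in the sources used here. Values had 2 decimals and a ceiling of 19.93, and array medians lay between 4.05 and 4.23. Low signal compresses differences, which bears on most members. The number of arrays limits the precision.

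Symbols came from the platform annotation (23456 clusters with 1 symbol, 495 with several, 44891 with none there), and 22077 were matched to RefSeq by gene number. A gene with several clusters was represented by the one with the highest mean. RIC minus control was fitted on the deposited values with limma 3.58.1 (lmFit, eBayes; R 4.3.3) over all 68842 clusters, with Benjamini-Hochberg adjustment and a threshold of 0.05. Single genes also had two-sided exact permutation tests. Python 3.11.15 was used for the summaries. The fit was also run on simulated data with known changes. Those values were drawn cluster by cluster without a background difference between groups, so that run does not cover this feature of the arrays. Samples were separate animals, and p-values reflect the spread among them.

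The members and gene lists were chosen with earlier results of these data known. All 10 members are named. From each list the 2 genes with the highest level and the 2 above background with the largest difference are named. Cyp2e1, Cyp3a2, Tat, Asgr2, Gc, neighbouring genes and the vesicle genes were chosen with their values in view. Alternatives were 4 scalings, 2 variance or weighting models, a filter on dim clusters, the replicate number as a block, and leaving out samples.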

Additional observations from a re-analysis of the deposited data

Results flagged for a closer look

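Serpina1 in RIC sample 5 measured 4.43, away from the other RIC samples, the nearest of which was at 4.06. That gap is 0.804 of the range of the 5 samples, above Dixon's critical value of 0.71. Of 20 groups of values examined (10 genes in 2 groups) this was the 1 that exceeded it, and about 1 in 20 does so by chance.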

How the results depend on the processing

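No member passed limma under any alternative that was run, and the count of clusters past the threshold stayed at 0. The count of members with a positive difference stayed at 8 of 10 in every alternative except centring on the receptors (6) and testing only clusters above the receptor 95th percentile, where 2 members were left, both positive (2, median difference 0.34), because fewer genes were tested. By each array's own receptor 95th percentile, 1 member lay above it on most arrays, in place of 2 by the mean. Fga turned from 0.07 to -0.02 after centring on the receptors, which takes out the difference of 0.08 between the groups' receptor medians. The cause of that background difference was not tested. Leaving out 1 sample at a time gave a median member difference of 0.08 to 0.11, and differences of 0.37 to 0.71 for Alb and -0.42 to -0.04 for Fgg. The median was 0.03 after centring on the array median, 0.04 after repeated quantile normalization or removal of the level-dependent trend, and 0.10 without control samples 1 and 2, an alternative added after the data were seen. Each member had 1 cluster, so averaging clusters changed nothing. Replicate numbers did not pair the samples: deviations of same-numbered samples correlated at -0.0485 to 0.176, and 1 of 5 RIC samples correlated best with its own number. With the replicate block 0 clusters passed (7599 at an unadjusted p under 0.05), the median member difference was 0.09, 8 members were positive, and Alb differed by 0.58 (limma adjusted p = 0.52). Signal near background limits what can be seen for 9 of the 10 genes.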

Other observations

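The genes next to Alb on chromosome 14 were mostly at background. Afm and Afp, of the same gene family as Alb, had mean levels of 4.05 each, with 4.12 and 4.13 in RIC against 3.99 and 3.97 in control. Gc, which encodes the vitamin D binding protein of that family, is not among these neighbours. It averaged 4.54, above the background limit, with 4.62 in RIC and 4.47 in control. On the other side of Alb, Ankrd17, an ankyrin repeat gene, measured 5.95 in RIC and 5.98 in control, and Cox18 4.06 in RIC and 4.04 in control. Beside the fibrinogen genes, Plrg1, a splicing factor gene next to Fgb, measured 5.32 in RIC and 5.47 in control. Beside Apoa1, Apoc3, an apolipoprotein that slows the clearance of triglyceride-rich particles, measured 4.35 in RIC and 4.28 in control, and Apoa4 measured 3.88 in both groups. The profiles nearest to Ttr over the 10 samples were those of Kctd21 (root mean square difference 0.03), Cln6 (0.05) and Cep43 (0.06), against a spread of 0.08 for Ttr itself, and all of them differed between groups by less than 0.10.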
